A study of Mus musculus with 6 samples.

Results

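The STAT factors and their SOCS feedback inhibitors were followed in CT26 tumors of mice treated with H89, through 8 genes named by a fixed list: Stat2, Stat3, Stat4, Stat6, Socs1, Socs2, Socs3 and Cish. They are 8 of the 23557 genes measured, and the list was not drawn from a threshold on these data, although Stat2 had been singled out by the study from these same tumors. STAT5 genes were left out of the list. All 8 were abundant enough to be tested among 13118 genes.

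Cytokines bind receptor chains that carry Janus kinases, and these kinases phosphorylate STAT factors, which then enter the nucleus and switch on target genes. Type I interferon acts through a complex that holds STAT2 and IRF9, IL-6 and related cytokines through STAT3, IL-12 through STAT4, and IL-4 and IL-13 through STAT6. The SOCS genes and Cish are themselves induced by STAT factors, and their products block the receptors or kinases and bring proteins to a ubiquitin ligase, so that they work as feedback. In tumors these factors are known both in the cancer cells and in the infiltrating immune cells.

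CT26 is a mouse colon carcinoma line derived from BALB/c. Female mice of this strain aged 7 weeks received 500000 CT26 cells under the skin, and from day 6 were given intraperitoneal H89, a protein kinase A inhibitor, at 10 mg/kg in NaCl, or NaCl, 2 times a week. Tumors were taken on day 14, 3 from each group, and whole-tumor total RNA was read with the BGISEQ-500 system. The labels number the tumors from 1 to 3 in each group without saying whether they came from separate experiments, so each test reflects the spread between these tumors. The tumors held between 27067349 and 31958793 estimated counts. The epithelial genes that would mark colon tissue were sparse: Cdx2 and Vil1 stayed at or under 0.304 CPM (counts per 1000000, scaled by edgeR's TMM factors) in every tumor, while Krt18 ranged from 7.75 to 23.5 CPM. Of 10 keratinocyte markers, 8 averaged under 0.5 CPM, and the 8 skeletal muscle markers summed to 23.6 CPM in H89 tumor 1 against 2.25 to 3.88 CPM in the other tumors.

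The sequences ahead of 3 members are shown because the motifs of STAT factors and of the interferon complex occurred in them, and 2 shorter stretches are shown for Socs3 and Cish. RefSeq windows for GRCm38.p6, with 250 bases before and 50 bases after a transcription start, were at hand for 7 of the 8 members. The patterns searched on both strands were TTCNNNGAA and the form with 4 bases between TTC and GAA, the spaced palindromes that STAT dimers bind, and GAAA repeated after any 2 bases, the core of the interferon-stimulated response element. These starts are those of RefSeq and can differ from the gene starts of GENCODE. Capitals mark the matches, and each sequence reads from 5′ to 3′ on the gene's strand.
Stat2, upstream bases, chr10:128270248-128270497, + strand: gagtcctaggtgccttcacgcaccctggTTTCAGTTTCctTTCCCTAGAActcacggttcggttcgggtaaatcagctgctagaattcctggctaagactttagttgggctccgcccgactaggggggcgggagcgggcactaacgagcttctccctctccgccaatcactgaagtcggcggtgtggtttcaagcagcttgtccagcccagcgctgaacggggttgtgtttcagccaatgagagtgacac
Socs1, upstream bases, chr16:10785537-10785786, - strand: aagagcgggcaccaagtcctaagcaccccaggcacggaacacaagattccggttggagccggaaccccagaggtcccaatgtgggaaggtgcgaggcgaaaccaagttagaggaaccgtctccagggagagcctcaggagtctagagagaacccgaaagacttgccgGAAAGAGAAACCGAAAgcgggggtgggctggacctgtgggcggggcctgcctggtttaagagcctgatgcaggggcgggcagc
Stat4, upstream bases of its second start, chr1:52007990-52008239, + strand: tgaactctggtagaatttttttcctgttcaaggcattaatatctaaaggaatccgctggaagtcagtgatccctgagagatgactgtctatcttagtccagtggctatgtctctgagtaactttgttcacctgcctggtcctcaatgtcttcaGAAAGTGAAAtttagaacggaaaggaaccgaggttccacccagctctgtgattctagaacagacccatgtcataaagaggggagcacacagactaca
Socs3, 1 site, chr11:117969502-117969530, - strand: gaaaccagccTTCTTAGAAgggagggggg
Cish, 2 sites, chr9:107296654-107296683, + strand: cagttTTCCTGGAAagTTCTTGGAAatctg

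The Stat2 window held an interferon-type match on the opposite strand, starting 222 bases before the start, and a match of the 4-base spacing 210 bases before it. Socs1 carried a pair of overlapping interferon-type matches, starting 83 and 77 bases upstream, and the second start of Stat4 carried one 97 bases upstream. Socs3 and Cish carried instead the TTCNNNGAA form, once at 154 bases upstream in Socs3, and at bases 1 and 12 after the start in Cish. None of the patterns occurred in the windows of Stat3, Stat6 or the first start of Stat4. Over all 32851 promoter windows, 8.30% held TTCNNNGAA, 6.95% the 4-base spacing and 3.44% the interferon-type pattern. A match is a run of letters and not evidence that a factor bound there.

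Among the members, Stat2 and Stat4 were the only ones whose levels lay higher in every H89 tumor than in every NaCl tumor. Stat3 and Stat6 overlapped between groups, and the feedback genes had no common direction. Socs1 and Cish had higher means with H89, and Socs2 and Socs3 lower ones, all within overlapping groups. With edgeR's quasi-likelihood test and Benjamini-Hochberg adjustment over all genes tested, 0 of 8 members passed an adjusted p of 0.05, where 1.59% of all genes did (0.861% higher and 0.724% lower). At an unadjusted p under 0.05 there were 2 of 8, both higher, against 13.1% of all genes higher and 25.0% in either direction. In 15.2% of all genes the H89 tumors lay wholly above the NaCl tumors. DESeq2 called 1 member, Stat2, and 10.6% of all genes (5.31% higher and 5.34% lower), and limma-voom with sample weights called 1, Stat4, and 12.9% of all genes. The count at the unadjusted p was 4 without NaCl tumor 1 (21.5% of all genes in that fit), 4 without H89 tumor 2 (18.3%) and 1 without NaCl tumor 3 (19.2%).

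**Figure D1:**
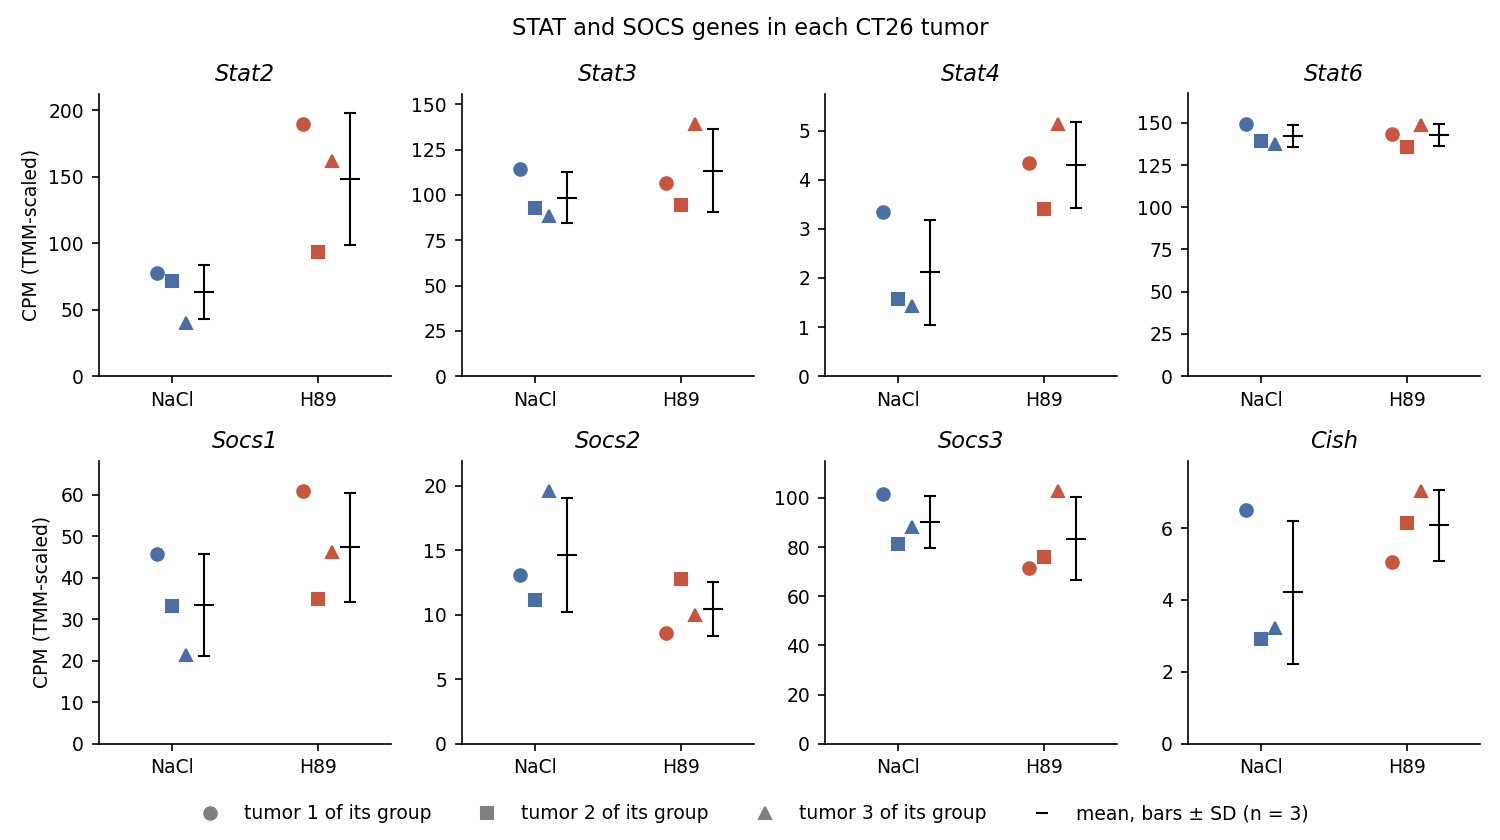
Level of each of the 8 genes in each tumor, in CPM with TMM scaling on a linear axis from 0; each symbol is 1 tumor and the bars show the mean ± SD of 3 tumors. Stat2 in the H89 tumors (93.5 to 190 CPM) lies above the NaCl tumors (40.1 to 77.9 CPM), and Stat4 does so narrowly, while the other 6 genes overlap.

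Stat2, the partner of IRF9 in the interferon-activated complex, lies at chr10:128270559-128292849 on the + strand. Its level was 77.9, 71.7 and 40.1 CPM in NaCl tumors 1, 2 and 3, and 189.8, 93.5 and 162.0 CPM in H89 tumors 1, 2 and 3. All H89 tumors were above all NaCl tumors, with H89 tumor 2 nearest to them and NaCl tumor 3 the lowest. In edgeR the log2 fold change came to 1.23 (SE 0.31, 95% interval 0.52 to 1.94), or 2.35-fold, with an adjusted p of 0.0800 in edgeR and of 0.000326 in DESeq2. Across the 10 ways to divide 6 tumors into groups of 3, an exact permutation test (two-sided) gave 0.1, the smallest p that 3 against 3 allows. With 1 tumor left out, the log2 fold change was 0.99 without NaCl tumor 3 and 1.48 without H89 tumor 2. Because these are whole tumors, more cells that hold a transcript and more of it per cell cannot be told apart.

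Irf9, the DNA-binding subunit of the same complex, ranged from 30.04 to 47.7 CPM in NaCl and from 55.0 to 81.3 CPM in H89 tumors, without overlap, at a log2 fold change of 0.81 (adjusted p 0.0800 in edgeR). In both Stat2 and Irf9, NaCl tumor 3 was lowest of the 6 and H89 tumor 2 lowest of the treated tumors.

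Of 28 interferon-stimulated genes bound by STAT2 complexes, a list that itself holds Irf9 and Usp18, 0 passed the adjusted p in edgeR. DESeq2 called 14 and limma-voom 2, all higher. Of all genes, DESeq2 called 5.31% higher and limma-voom 12.9% in either direction. All 28 had a positive log2 fold change, as had 6638 of the 13118 genes tested. At an unadjusted p under 0.05, 20 were higher, against 13.1% of all genes. In 8 the H89 tumors lay wholly above the NaCl tumors, against 15.2% of all genes. The median was 0.73 against 0.00 over all genes tested. Examples are Eif2ak2, the RNA-activated kinase PKR (log2 fold change 0.64, adjusted p 0.0523 in edgeR), Oas2, an RNA sensor (1.31, adjusted p 0.0543) and Mx1, an antiviral GTPase (1.06, adjusted p 0.0652). The summed level of the 28 genes was 1898, 1826 and 1195 CPM in the NaCl tumors and 3589, 1830 and 3065 CPM in the H89 tumors, so H89 tumor 2 lay only just above NaCl tumor 2 and below NaCl tumor 1. The genes whose profile over the 6 tumors lay closest to that of Stat2 were H2-T23, Xaf1 and Oasl2, with root mean square differences of 0.0378, 0.0600 and 0.119 on the log2 scale, among 10462 genes compared. The profile of Stat2 itself had an SD of 0.75 on that scale.

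Stat4, which carries IL-12 signals in T and NK cells, lies at chr1:51987148-52107189 on the + strand and was scarce. Its estimated counts were 93, 42 and 39 in the NaCl tumors and 122, 112 and 169 in the H89 tumors, or 3.35, 1.57 and 1.43 CPM against 4.35, 3.40 and 5.14 CPM. The groups were separate, but H89 tumor 2 and NaCl tumor 1 differed by less than 0.1 CPM. For Stat4 the log2 fold change was 1.02 (SE 0.35, 95% interval 0.21 to 1.83), with an adjusted p of 0.133 in edgeR, 0.0583 in DESeq2 and 0.0402 in limma-voom. The exact permutation test again gave its smallest p, 0.1. Without NaCl tumor 1 the log2 fold change was 1.52, and without NaCl tumor 3 it was 0.80. Its exons overlap those of a predicted gene on the same strand, Gm28177, and its estimated counts were whole to within 0.01 in all 6 tumors.

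Markers of T and NK cells, which are known to express Stat4, were also higher on average in the H89 tumors. The 14 T cell markers summed to 52.6, 27.9 and 21.5 CPM in the NaCl tumors and to 76.8, 45.6 and 110 CPM in the H89 tumors, and all 14 had a positive log2 fold change (8 of them at an unadjusted p under 0.05, 0 at an adjusted p in edgeR, 5 in DESeq2 and 1 in limma-voom). The 8 NK cell markers summed to 81.1, 49.5 and 17.5 CPM against 101, 54.6 and 152 CPM, with all 8 positive and 4 higher at an unadjusted p. Of all genes, 13.1% were higher at an unadjusted p, DESeq2 called 5.31% higher and limma-voom called 12.9% in either direction. In both sums H89 tumor 3 was highest and NaCl tumor 3 lowest, as for Stat4, and H89 tumor 2 was below NaCl tumor 1. These extremes were not particular to T and NK cells. The 8 conventional dendritic cell markers had them too, at 19.6, 15.3 and 14.6 CPM in NaCl and 22.4, 28.2 and 29.5 CPM in H89 tumors. That sum did not overlap between groups, and the macrophage sum was also highest in H89 tumor 3. The 11 macrophage markers overlapped between groups, at 1392 to 2185 CPM in NaCl and 1805 to 2200 CPM in H89 tumors. The 8 fibroblast markers were at 2573 to 2797 CPM in NaCl and 2877 to 3667 CPM in H89 tumors. All 8 were positive and 4 of them higher without overlap, against 15.2% of all genes. The 7 B cell markers summed to 2.41 to 2.67 CPM against 3.89 to 4.80 CPM. The part of the numbers of any of these cells in the level of Stat4 was not tested.

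**Figure D2:**
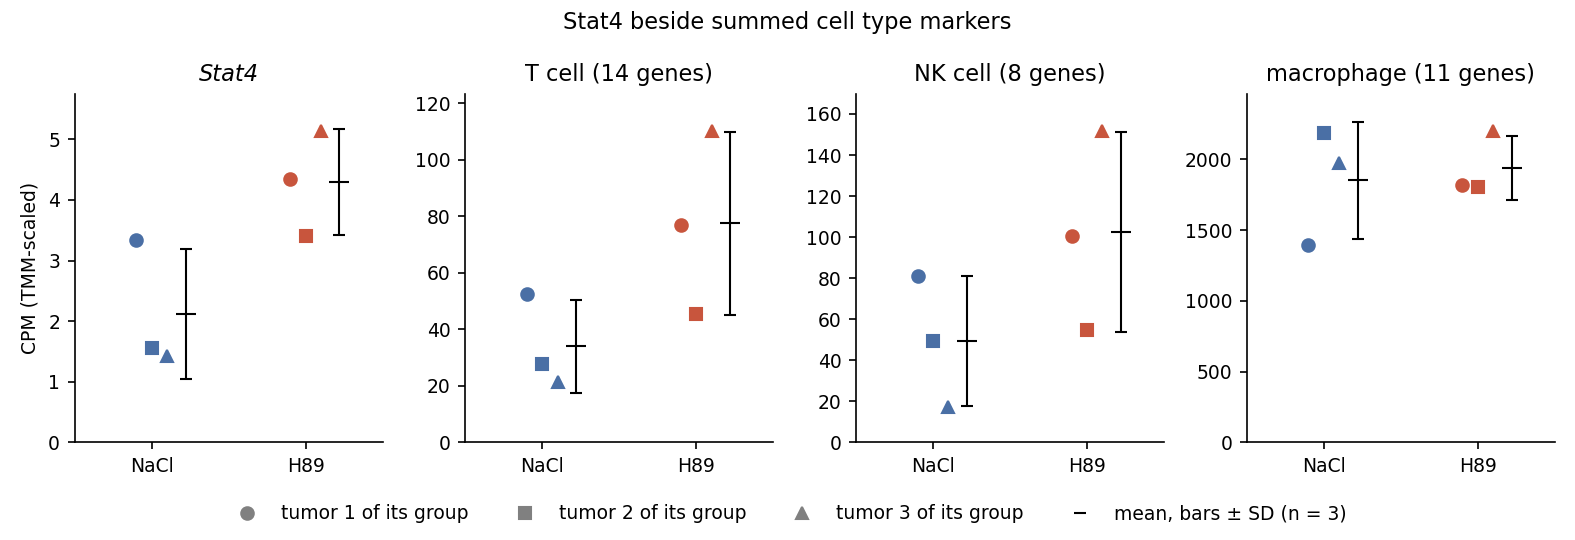
Level of Stat4 beside the summed levels of 14 T cell, 8 NK cell and 11 macrophage marker genes, in CPM with TMM scaling on linear axes from 0; symbols are tumors and bars show mean ± SD of 3 tumors. H89 tumor 3 is the highest and NaCl tumor 3 the lowest for Stat4, the T cell sum and the NK cell sum. For the macrophage sum H89 tumor 3 is also the highest, and NaCl tumor 1 is the lowest.

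Among 12 STAT4 target and Th1 genes, 6 were higher and 1 lower at an unadjusted p under 0.05, against 13.1% and 11.9% of all genes. The median log2 fold change was 0.79. At the adjusted p, 0 passed in edgeR, 2 higher and 1 lower in DESeq2, and 1 in each direction in limma-voom. The shares of all genes were 5.31% higher and 5.34% lower in DESeq2, and 12.9% in either direction in limma-voom. Il18r1, a chain of the IL-18 receptor, was at 1.43 to 2.59 CPM in NaCl and 3.77 to 6.13 CPM in H89 tumors (log2 fold change 1.40, adjusted p 0.0593 in edgeR). It was also singled out by the study from these tumors. Hlx, a homeobox factor, had a log2 fold change of -0.43 (adjusted p 0.0608) with all H89 tumors below the NaCl tumors. Closest to Stat4 in profile were Gpr132, Dgka and Xdh, with root mean square differences of 0.132, 0.137 and 0.177, beside an SD of 0.59 for Stat4 itself.

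Stat3, the factor of IL-6 type cytokines, lies at chr11:100885098-100939540 on the - strand. Its level was 114.6, 92.8 and 88.3 CPM in the NaCl tumors and 106.7, 94.5 and 139.3 CPM in the H89 tumors. The groups overlapped and only H89 tumor 3 exceeded the NaCl range. In edgeR the log2 fold change came to 0.20 (SE 0.16, 95% interval -0.17 to 0.58, adjusted p 0.458 in edgeR), and 0.03 without H89 tumor 3. Its exons overlap a neighbour on the opposite strand, and its estimated counts were not whole, so reads were divided with other transcripts. The closest profiles were those of Susd6, Psap and Fos, at 0.0480 to 0.0662.

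Of 21 known targets of STAT3, 8 were lower and 1 higher at an unadjusted p under 0.05, against 11.9% of all genes lower and 13.1% higher. Il4ra, 1 of the 8 lower, is also counted as lower among the STAT6 targets and the cytokine receptor chains. At the adjusted p, 0 passed in edgeR, 4 lower and 1 higher in DESeq2, and 4 lower in limma-voom. Of all genes, DESeq2 called 5.34% lower and 5.31% higher, and limma-voom called 12.9% in either direction. In 9 of the 21 all H89 tumors lay below all NaCl tumors, compared with 15.5% of all genes, and the median log2 fold change was -0.20. Timp1, an inhibitor of matrix metalloproteinases, was at 673, 603 and 766 CPM in the NaCl tumors and at 312, 464 and 396 CPM in the H89 tumors (log2 fold change -0.80, adjusted p 0.0517 in edgeR). Ccnd1, the cell cycle protein cyclin D1, was at 1235 to 1348 CPM against 941 to 1025 CPM (-0.43, adjusted p 0.0529). Bcl2l1, which encodes the survival protein BCL-XL, was at 193 to 225 CPM against 142 to 165 CPM (-0.45, adjusted p 0.0612). The groups were apart for each of these 3 genes, and so were the summed levels of the 21 targets, at 3664 to 4036 CPM in NaCl and 2875 to 3114 CPM in H89 tumors. Without these 3 genes, a sum added after the values had been seen, the other 18 gave 1517 to 1790 CPM and 1357 to 1615 CPM, and the groups overlapped.

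Stat6, the factor of IL-4 and IL-13, lies at chr10:127642986-127660957 on the + strand and was the steadiest of the 8 genes. It measured 149.4, 139.3 and 137.5 CPM in the NaCl tumors and 143.6, 135.9 and 149.0 CPM in the H89 tumors. The groups overlapped almost fully, and the log2 fold change was 0.01 (SE 0.08, adjusted p 0.965 in edgeR), with a sign that turned under several other settings. Its 95% interval, from -0.18 to 0.19, bounds the difference. Over the 6 tumors its SD was 0.05 on the log2 scale, and Efr3a, Dhx38 and Cnep1r1 came closest to its profile, at 0.0165 to 0.0211.

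Of 18 STAT6 target genes 17 were tested, with a median log2 fold change of 0.36. At an unadjusted p under 0.05, 3 were higher and 3 lower, against 13.1% of all genes higher and 11.9% lower. At the adjusted p, 0 passed in edgeR, 1 in each direction in DESeq2 and 2 in each direction in limma-voom. DESeq2 called 5.31% of all genes higher and 5.34% lower, and limma-voom called 12.9% in either direction. Ccl11, the eosinophil chemokine eotaxin, was at 1.22, 1.16 and 1.06 CPM in the NaCl tumors and 5.06, 4.71 and 1.79 CPM in the H89 tumors (log2 fold change 1.74, adjusted p 0.0669 in edgeR). H89 tumor 3 was the nearest to the NaCl tumors. Batf3, needed for cross-presenting dendritic cells, had a log2 fold change of 1.09 (adjusted p 0.0977), and Klf4, a macrophage and epithelial factor, one of -0.34 (adjusted p 0.0903). The conventional dendritic cell markers, a list of 8 that also holds Batf3, summed to 14.6 to 19.6 CPM in NaCl and 22.4 to 29.5 CPM in H89 tumors. At an unadjusted p under 0.05, 5 of the 6 tested were higher, against 13.1% of all genes. The part of dendritic cells in these values was not tested.

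**Figure D3:**
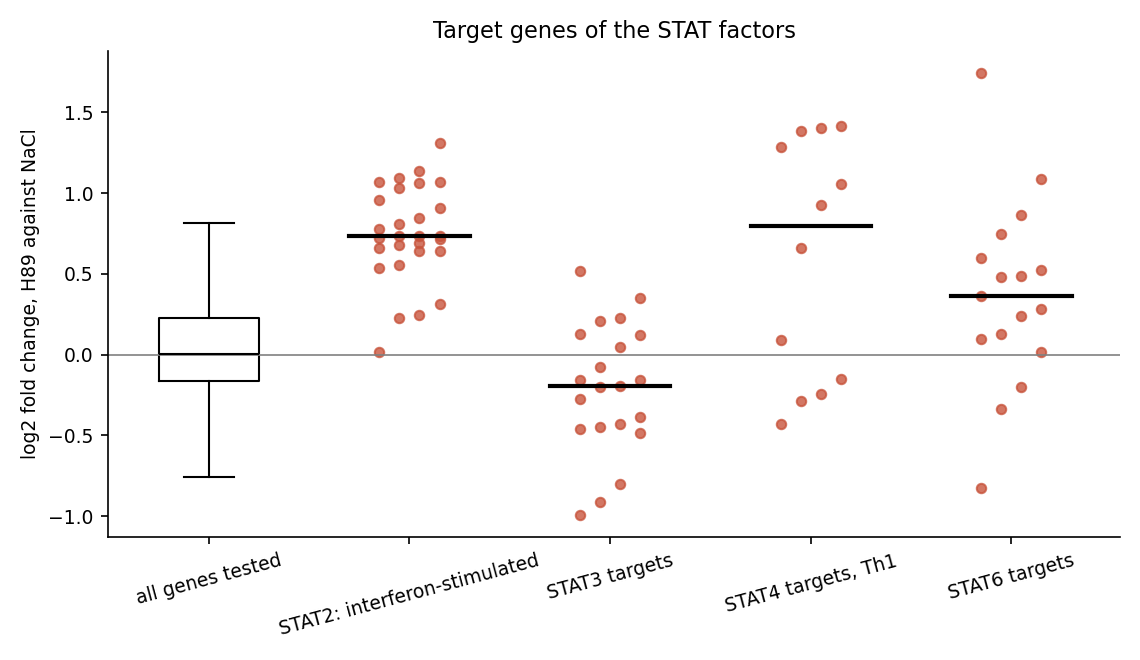
Log2 fold change, H89 against NaCl, of the target genes of each STAT factor; each point is 1 gene, the thick line is the list's median, and the box gives the quartiles of all 13118 genes tested, with whiskers to 1.5 times the interquartile range. The median lies at 0.73 for the STAT2 list, -0.20 for STAT3, 0.79 for STAT4 and 0.36 for STAT6.

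Socs1, the inhibitor that blocks Janus kinases after interferon, lies at chr16:10782240-10785536 on the - strand. It measured 45.8, 33.2 and 21.3 CPM in the NaCl tumors and 60.9, 34.8 and 46.2 CPM in the H89 tumors. NaCl tumor 1 lay above H89 tumor 2, and NaCl tumor 3 was again the lowest of the 6. The estimated log2 fold change was 0.50 (SE 0.29, 95% interval -0.16 to 1.17, adjusted p 0.315 in edgeR), and 0.26 without NaCl tumor 3 or 0.80 without NaCl tumor 1. Parp10, Ube2l6 and H2-K1 lay closest to its profile, at 0.10 to 0.116 beside an SD of 0.47 for Socs1.

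Socs3, which inhibits signaling through the gp130 receptor chain of IL-6, lies at chr11:117966079-117970047 on the - strand. Its level was 101.7, 81.1 and 88.0 CPM in the NaCl tumors and 71.5, 76.0 and 102.7 CPM in the H89 tumors. The first and second H89 tumors were below all NaCl tumors and the third was above them. Its log2 fold change was -0.11 (SE 0.15, 95% interval -0.46 to 0.24, adjusted p 0.668 in edgeR), and -0.29 without H89 tumor 3 or -0.014 without H89 tumor 1. Its closest profiles were those of Rftn1, Glg1 and Emilin2, at 0.0505 to 0.0574.

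Socs2, a regulator of growth hormone signaling, lies at chr10:95385362-95417180 on the - strand. It measured 13.1, 11.2 and 19.6 CPM in the NaCl tumors and 8.59, 12.8 and 10.0 CPM in the H89 tumors. H89 tumor 2 exceeded NaCl tumor 2, and NaCl tumor 3 stood highest. In edgeR the log2 fold change came to -0.48 (SE 0.24, 95% interval -1.03 to 0.06, adjusted p 0.246 in edgeR), and -0.22 without NaCl tumor 3 or -0.65 without H89 tumor 2. Its closest profiles were those of Csgalnact1, Arhgef28 and Abcb1a, at 0.0625 to 0.121.

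Cish, a feedback inhibitor of cytokine and T cell receptor signaling, lies at chr9:107296026-107302784 on the + strand. It was at 6.51, 2.91 and 3.22 CPM in the NaCl tumors and 5.06, 6.14 and 7.02 CPM in the H89 tumors. NaCl tumor 1 fell among the H89 tumors, while NaCl tumors 2 and 3 were lower. The estimated log2 fold change was 0.53 (SE 0.32, 95% interval -0.20 to 1.26, adjusted p 0.334 in edgeR), and 0.99 without NaCl tumor 1 or 0.32 without NaCl tumor 2. Anpep, Spib and Gpr132 lay closest, at 0.112 to 0.184, and Gpr132 was also the nearest gene to Stat4. The counts of Socs2 were not whole in any tumor, and those of Cish were whole only in H89 tumor 1. Part of the reads of both genes was thus shared with other transcripts, and the exons of Cish overlap predicted genes on the opposite strand.

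Within each tumor, 2 ratios of a feedback transcript to a STAT transcript were lower with H89. These ratios of estimated counts were chosen after the values had been seen. The Socs3 to Stat3 ratio was 0.887, 0.874 and 0.997 in the NaCl tumors and 0.670, 0.804 and 0.737 in the H89 tumors, so that all H89 tumors lay below all NaCl tumors although neither gene alone separated the groups. The mean log2 ratio was lower by 0.32, and by 0.25 to 0.39 with any 1 tumor left out. Because the groups did not overlap, the exact two-sided permutation test could only give 0.1, its smallest p. For a ratio chosen after the values had been seen, it adds nothing to the separation. As background, 12.3% of all genes were lower relative to Stat3 in every H89 tumor.

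The Socs1 to Stat2 ratio was 0.588, 0.463 and 0.531 in the NaCl tumors and 0.321, 0.373 and 0.286 in the H89 tumors, again without overlap. Since Stat2 itself was high in the H89 tumors, 70.8% of all genes showed this relative to Stat2. Without overlap the exact permutation test could again only give 0.1, and it likewise adds nothing to the separation.

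**Figure D4:**
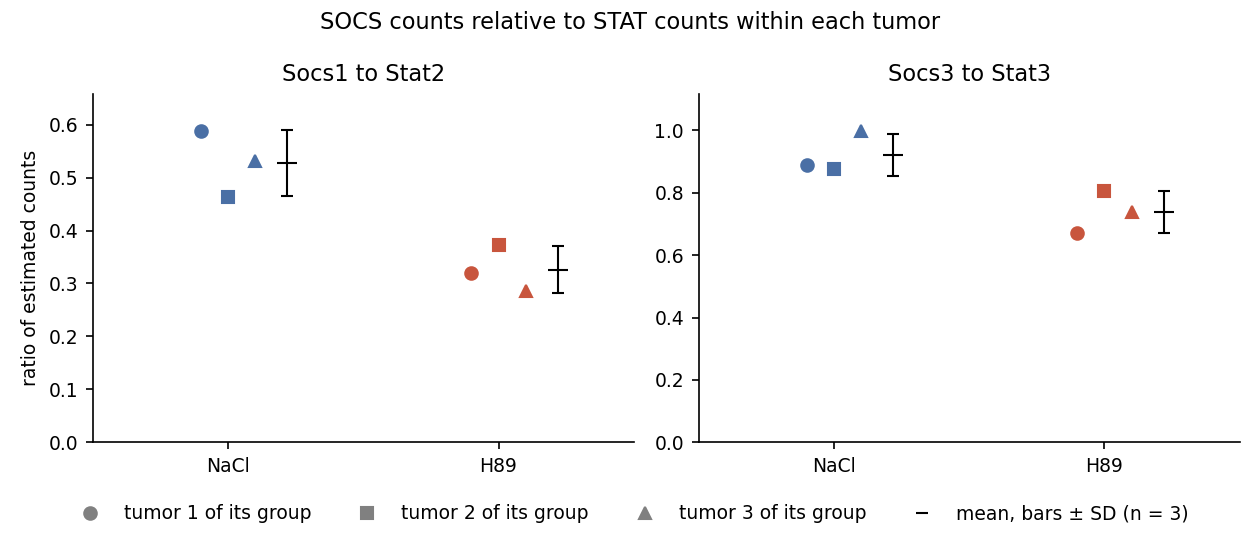
Ratio of the estimated counts of a SOCS gene to those of a STAT gene within each tumor, on linear axes from 0; symbols are tumors and bars show mean ± SD of 3 tumors. In both ratios the H89 tumors lie below the NaCl tumors, from 0.670 to 0.804 against 0.874 to 0.997 for Socs3 to Stat3.

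Per kilobase of exon, the levels of the members spanned a wide range. In the NaCl tumors Stat6 stood at 32.3 ± 1.46 and Socs3 at 31.2 ± 3.62 CPM per kb (SD, n = 3), and these neighbours did not differ beyond their spread. Socs1 (11.5 ± 4.22), Stat2 (10.7 ± 3.42) and Stat3 (10.3 ± 1.48) followed with overlapping ranges, then Socs2 (1.54 ± 0.462), Cish (0.656 ± 0.311) and Stat4 (0.546 ± 0.276). In the H89 tumors Stat2 (25.0 ± 8.37) came, between Socs3 (28.8 ± 5.82) and Socs1 (16.3 ± 4.49), and Stat4 (1.11 ± 0.224) came level with Socs2 (1.10 ± 0.223) and Cish (0.946 ± 0.153). The exon lengths are those of GENCODE M21, and the isoforms in use were not known.

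The other SOCS genes and the partners of the SOCS ligase gave 0 calls at the adjusted p in edgeR. DESeq2 called 1 of the 4 genes lower in each list, against 5.34% of all genes. In limma-voom 1 of the other SOCS genes and 2 of the ligase partners were called lower, against 12.9% of all genes in either direction. Socs5, which like the others carries a SOCS box, was at 182 to 197 CPM in NaCl and 119 to 162 CPM in H89 tumors (log2 fold change -0.42, adjusted p 0.0964 in edgeR), and Socs7 at 29.3 to 32.7 against 25.0 to 27.2 CPM (-0.25, adjusted p 0.145), both without overlap. Socs4 (0.20) and Socs6 (-0.14) overlapped between groups. Of the ligase partners that bind the SOCS box, Elob, an adaptor, had a log2 fold change of -0.44 (adjusted p 0.0990) and Rnf7, a RING subunit, one of -0.25 (adjusted p 0.104), both with all H89 tumors below the NaCl tumors. Eloc (-0.05) and the scaffold Cul5 (0.05) overlapped. At an unadjusted p under 0.05, 2 of the 4 other SOCS genes and 2 of the 4 ligase partners were lower and none was higher. Of all genes, 11.9% were lower and 13.1% higher at that p.

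**Figure D5:**
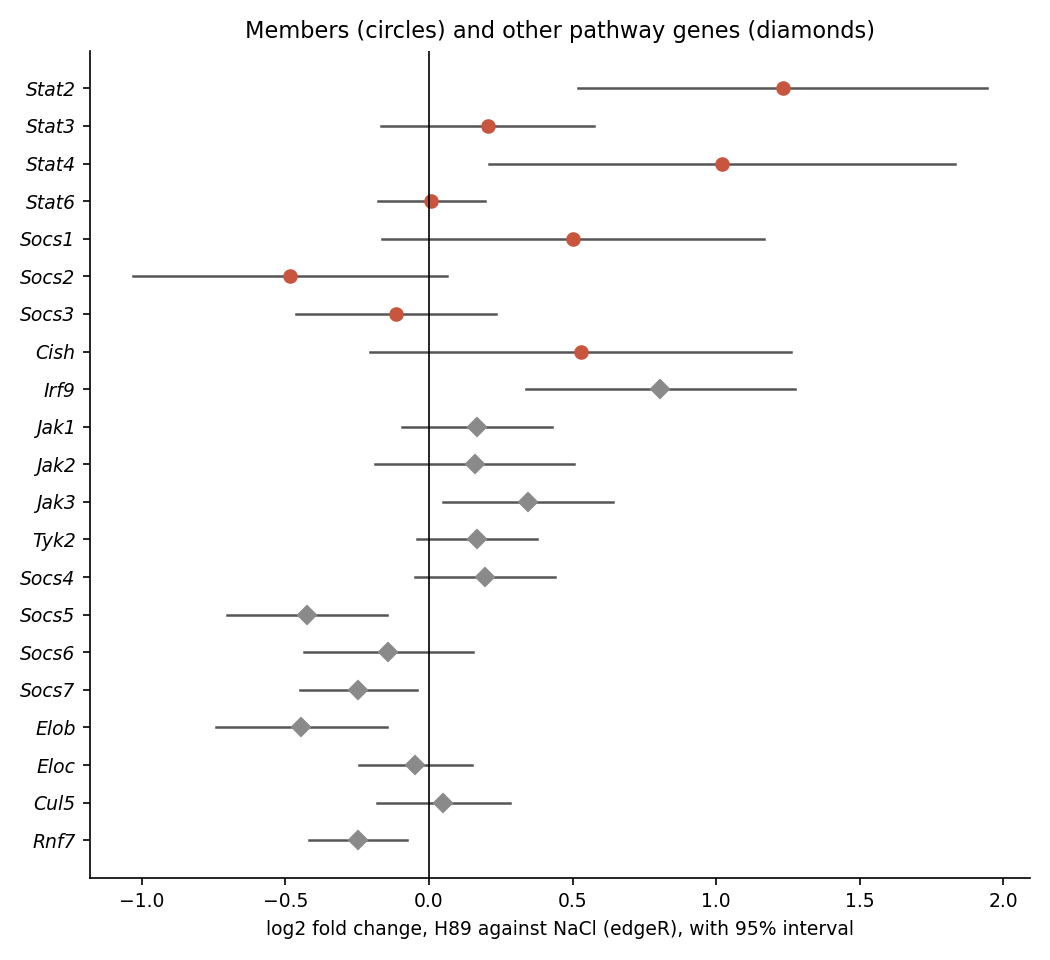
Log2 fold change of H89 against NaCl tumors from the edgeR fit, with the 95% interval, for the 8 genes (circles) and the other pathway genes (diamonds). The intervals of Stat2 (0.52 to 1.94) and Stat4 (0.21 to 1.83) are the only ones of the 8 that leave out 0.

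Upstream of the factors, the Janus kinases had small positive log2 fold changes. Jak3, the kinase of the common gamma chain, was at 98.9 to 132.5 CPM in NaCl and 132.9 to 152 CPM in H89 tumors (0.35, unadjusted p 0.0275 and adjusted p 0.154 in edgeR), and Tyk2 (0.17, adjusted p 0.287) did not overlap either. Jak1 (0.17) and Jak2 (0.16) overlapped between groups. Of 35 cytokine receptor chains 31 were tested, and Csf2ra, the alpha chain of the GM-CSF receptor, was the only one past the adjusted p in edgeR. DESeq2 called 4 and limma-voom 3, all higher. Of all genes, edgeR called 0.861% higher, DESeq2 5.31% higher and limma-voom 12.9% in either direction. Csf2ra rose with H89, with 22.4 to 31.7 CPM in the NaCl tumors and 41.7 to 44.7 CPM in the H89 tumors (log2 fold change 0.72, SE 0.13, adjusted p 0.0481 in edgeR). With any 1 tumor left out its log2 fold change was 0.62 to 0.88 and its adjusted p was 0.0757 to 0.147. In all, 9 receptor chains were higher and 1 lower at an unadjusted p, against 13.1% and 11.9% of all genes. Among the higher ones were Csf3r (0.90), Il10ra (0.54) and the prolactin receptor Prlr (2.48, on 3 to 7 counts in NaCl and 19 to 53 in H89 tumors). At so few counts the value depends on the scale, and for Prlr it was 0.74 in limma on log2(CPM + 1). In the NaCl tumors Prlr was under the filter of 0.5 CPM. It was tested, and counted among the 9 higher, only through its level in the H89 tumors.

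Of 27 cytokines 13 were tested, 3 of them higher and 2 lower at an unadjusted p under 0.05, against 13.1% and 11.9% of all genes. At the adjusted p, 0 passed in edgeR, 1 lower in DESeq2 and 2 lower in limma-voom. Of all genes, DESeq2 called 5.34% lower and limma-voom 12.9% in either direction. Il27 (log2 fold change 1.43) and Il10 (1.23) were higher without overlap, at means of 0.675 and 0.353 CPM in the NaCl tumors, and Il11 had a log2 fold change of -0.89. In the NaCl tumors Il10 was under the filter of 0.5 CPM. It was tested, and counted among the 3 higher, only through its level in the H89 tumors. With quantile normalization and limma the value of Il10 was 0.40. Of 11 other negative regulators, 3 were higher and 1 lower at an unadjusted p, against 13.1% and 11.9% of all genes. Ptprc, the leukocyte phosphatase CD45, was at 25.2 to 31.5 CPM in NaCl and 47.2 to 78.8 CPM in H89 tumors (1.01, adjusted p 0.0547 in edgeR). Ptpn6, the phosphatase SHP-1 (0.47), and Usp18, which curbs interferon receptor signaling (0.74), overlapped between groups.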

How the data were processed

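Total RNA of 6 CT26 tumors (3 NaCl, 3 H89) was sequenced, and groups came from the sample titles. The authors deposited 1 table of estimated counts per gene, not scaled for depth or length. The table is called TPM, but its tumors summed to 27067349 to 31958793, where TPM would sum to 1000000, and 58.6% to 61.4% of nonzero values were whole to within 0.01. The submitters' processing notes name kallisto, DESeq2 and GRCm38, with no version given. The study's own test used DESeq2 with Bonferroni adjustment.

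After rounding, the genes averaging 0.5 CPM or more (13118 of 23557) were tested with edgeR 4.0.16 (TMM, quasi-likelihood, treatment only; R 4.3.3) and Benjamini-Hochberg adjustment, with DESeq2 1.42.0 and limma 3.58.1 as alternatives. To obtain the SE, the size of the log2 fold change was divided by the root of the F statistic. The script was tested on simulated data. In any tumor 1 count was less than 0.04 CPM, and groups of 3 tumors bound the precision. The 8 members and the 23 gene lists were chosen with earlier results of these data known. Some genes stand in more than 1 list, so the counts of different lists are not independent. Named in full were the members, the Janus kinases, Irf9, the other SOCS genes and the ligase partners. Of other pathway lists the genes past the adjusted p and the next 3 by p were named, with, for each member, the 3 genes of at least 5 CPM whose centred log2(CPM + 0.5) profile had the smallest root mean square difference. Some genes that the rule names are not reported here. Gene positions, exon lengths and overlaps are from GENCODE M21 on GRCm38, and promoter windows are from RefSeq. The alternatives changed the filter, the normalization, the test, the pseudocount and the replicate block, or left out 1 tumor.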

Additional observations from a re-analysis of the deposited data

How the results depend on the processing

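The number of genes called at an adjusted p under 0.05 was 208 in edgeR, 88 with quantile normalization and limma, 1396 with DESeq2, 1687 with limma-voom and sample weights, and 0 to 12 with 1 tumor left out. Members called were 0 in edgeR, 1 with DESeq2 and 1 with limma-voom. Members at an unadjusted p under 0.05 were 2 in edgeR, 1 under the filter of 5 CPM, which left Stat4 out of the test, and 1 to 4 with 1 tumor left out. On all 6 tumors, Socs2 was added with DESeq2 (p 0.0478) and with quantile normalization and limma (p 0.0445). Cish was added with limma-voom (p 0.0078) and Socs1 with the replicate block (p 0.0458). In those settings 20.9% to 33% of all genes were under that p. The sign of Stat6 turned without a filter (log2 fold change -0.0063), with limma-voom (-0.012), and in 3 of the 6 fits with 1 tumor left out, where it ranged from -0.026 to 0.045. Signs also turned with 1 tumor left out for Jak2 (-0.026 without H89 tumor 3, up to 0.28), for Eloc (0.00078 without NaCl tumor 3, down to -0.099) and for Cul5 (-0.019 without NaCl tumor 1, up to 0.14), and the cause was not tested. The other 7 members kept their direction under every alternative in which they were tested. Over the 42 named genes, 636 values kept their direction and their side of the threshold, 53 passed it where edgeR's did not (19 of them with DESeq2 and 18 with limma-voom) and 8 no longer passed it, all of Csf2ra. The deviations of same-numbered tumors from their group means had correlations of 0.163, 0.061 and -0.025, where differently numbered tumors gave -0.373 to 0.350. With 3 tumors per group these values cannot tell whether the numbers pair the tumors. The fit with the replicate number as a block called 0 genes and 0 members. That fit had 3750 genes at an unadjusted p under 0.05, against 3285 without the block. At 39 to 169 counts, Stat4 was the member most limited by depth.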
